A study of Mus musculus with 12 samples.

Results

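Replication-dependent histone genes were taken from the gene tables by name, as every symbol beginning Hist1h, Hist2h, Hist3h or Hist4h, without pseudogene names ending in -ps and without names containing os. This rule found 69 of the 54735 symbols in each table, namely 6 H1, 20 H2A, 18 H2B, 12 H3 and 13 H4 genes, and 66 of them reached a mean of at least 1 TPM over all libraries. TPM is transcript abundance per gene length, scaled so that each library sums to 1000000. The 3 that did not reach it were Hist1h1t and Hist1h2ba, which stayed below 0.56 TPM in every embryo, and Hist1h2aa, which is listed at 0 in all 12.

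The tissue was the pallium, the dorsal telencephalon from which the cerebral cortex grows, from C57/Bl6 mouse embryos at E13.5, with 4 embryos in each of 3 groups. Control embryos were Rnu11wt/flx::Trp53wt/wt::Emx1-Cre+, the cKO was Rnu11flx/flx::Trp53wt/wt::Emx1-Cre+, and the dKO was Rnu11flx/flx::Trp53flx/flx::Emx1-Cre+. Rnu11 encodes U11, an RNA that recognises the few introns spliced by the minor spliceosome, and Trp53 encodes p53. Emx1-Cre acts in pallial progenitors and was present in all groups, so the control is heterozygous for the Rnu11 deletion and other lineages in the dissected tissue are not its target. The labels number the embryos but do not state their litters.

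Histones are the proteins around which DNA is wrapped: H2A, H2B, H3 and H4 form the core of the nucleosome, and H1 binds the linker DNA between cores. The replication-dependent genes supply them while DNA is copied in S phase. Their messages are unusual in having no introns and no poly(A) tail; they end instead after a short stem-loop that is bound by SLBP and cut by a complex holding the U7 small nuclear RNA. Because libraries were made from total RNA, capture did not depend on a poly(A) tail. In bulk tissue, fewer cells in S phase and less histone RNA per cell cannot be told apart.

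The members lie in 6 places of the mm10 (GRCm38) genome by GENCODE M21. On chromosome 13, 24 genes lie between 21715763 and 22043676, 31 between 23531050 and 23934851, and Hist1h2al stands alone at 51202727 to 51203065. On chromosome 3, 10 genes lie between 96219865 and 96270132, on chromosome 11 Hist3h2ba and Hist3h2a lie between 58948920 and 58956830, and Hist4h4 lies on chromosome 6 between 136801553 and 136804415. Of the 69 genes, 64 have a single exon in every annotated transcript. Hist1h2aj and Hist1h2al are annotated as pseudogenes, although Hist1h2aj was the most abundant H2A symbol in these libraries.

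The stem-loop is shown first because it is the feature the classes share and the one by which their messages end. The pattern searched, on the sense strand of the annotated transcripts, was a stem of 6 bases around a loop of 4 (capitals, with flanks in lower case). It reads GG, any 2 bases, CTT, any base, T, any base, AG, the reverse complement of the first 2 free bases, and CC. It was found in 46 of 69 members, 21 to 58 bases after the stop codon in the 45 with a single-exon stop position (median 31). Of the 23 without it, 15 have a transcript that ends within 30 bases of the stop codon, so the search could not reach it there, and for 5 with multi-exon or pseudogene transcripts that distance was not computed. Examples of the forms, 5′ to 3′, are an H1, an H2A, an H2B and 3 H4 genes:
Hist1h1c, chr13:23739507-23739532, plus strand: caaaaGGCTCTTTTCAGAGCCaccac
Hist2h2ac, chr3:96220413-96220438, minus strand: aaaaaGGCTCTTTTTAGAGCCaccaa
Hist1h2bk, chr13:22036295-22036320, plus strand: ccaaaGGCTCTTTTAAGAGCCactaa
Hist1h4f, chr13:23551286-23551311, minus strand: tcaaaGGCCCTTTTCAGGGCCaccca
Hist1h4i, chr13:22040961-22040986, minus strand: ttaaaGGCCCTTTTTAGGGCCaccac
Hist1h4j, chr13:21735432-21735457, plus strand: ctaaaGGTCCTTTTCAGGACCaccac
In every H1, H2A, H2B and H3 gene with a match, the free bases in the middle of the stem are CT and AG. In all 12 H4 genes with a match they are CC and GG or TC and GA. Hist1h4i, which rose in both mutants, shares its exact 16 bases with Hist2h4, which fell. Hist2h2be, the other gene that rose, had no match despite more than 200 annotated bases after its stop codon.

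Promoters were compared because H2A and H2B genes are mostly arranged in divergent pairs that share one. RefSeq (GRCm38.p6) windows of 250 bases before to 50 after the start were found for 62 members, 63 windows in all, and 4 motifs were searched on both strands. ATTTGCAT, the octamer bound by OCT1, was in 7 of 18 H2A and 7 of 17 H2B windows and in no H1, H3 or H4 window, against 1.74% of all 32851 RefSeq windows. CCAAT was in every H1, H2A, H2B and H3 window but in 3 of 12 H4 windows (37.4% of all windows). TATAAA was in 35 of the 63 (13.6% of all). AAACACA, known from H1 promoters, was in 5 of 6 H1 windows (7.18% of all). A match describes letters in these windows and not binding. The 250 upstream bases are given for an H1 gene with all of its class motifs, an H2B gene with the octamer, the pair of which Hist2h2ac fell and Hist2h2be rose, and Hist1h4i, with matches on either strand in capitals:
Hist1h1b, chr13:21780626-21780875, minus strand: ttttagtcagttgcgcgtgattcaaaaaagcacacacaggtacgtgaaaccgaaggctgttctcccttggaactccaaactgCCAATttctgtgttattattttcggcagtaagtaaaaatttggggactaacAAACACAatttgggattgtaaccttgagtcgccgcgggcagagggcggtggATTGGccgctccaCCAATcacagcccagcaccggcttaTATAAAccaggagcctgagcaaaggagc
Hist1h2bk, chr13:22035571-22035820, plus strand: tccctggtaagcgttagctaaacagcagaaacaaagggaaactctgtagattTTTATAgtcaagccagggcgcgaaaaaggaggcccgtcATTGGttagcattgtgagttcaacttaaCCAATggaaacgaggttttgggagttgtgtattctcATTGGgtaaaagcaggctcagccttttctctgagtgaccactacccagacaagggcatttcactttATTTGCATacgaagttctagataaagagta
Hist2h2ac, chr3:96220881-96221130, minus strand: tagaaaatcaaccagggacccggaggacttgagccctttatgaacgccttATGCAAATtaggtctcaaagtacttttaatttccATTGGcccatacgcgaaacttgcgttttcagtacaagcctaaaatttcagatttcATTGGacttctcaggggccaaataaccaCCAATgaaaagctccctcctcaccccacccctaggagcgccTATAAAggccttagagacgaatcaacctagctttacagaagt
Hist1h4i, chr13:22041363-22041612, minus strand: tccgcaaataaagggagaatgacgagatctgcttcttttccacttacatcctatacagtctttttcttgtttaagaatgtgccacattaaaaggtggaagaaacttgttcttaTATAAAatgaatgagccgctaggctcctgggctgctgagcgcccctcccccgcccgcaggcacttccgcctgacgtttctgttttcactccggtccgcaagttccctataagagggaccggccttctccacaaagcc
The Hist2h2ac window spans the 239 bases between its start and that of Hist2h2be on the other strand, so both genes have the same octamer and CCAAT letters before them. The Hist1h4i window holds no CCAAT, as in most H4 windows.

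As a check of the labels, Rnu11 stood at 22.6% of control in cKO and 25.6% in dKO, and Trp53 in dKO at 32.1%, with all mutant embryos below all control embryos. Each library was dominated by short structural RNAs, with Rn7s2 at 28.2% to 35.4% and Rn7sk at 14.6% to 18.9% of its TPM. The histone members took 1.70% to 2.44% of a control library, 1.17% to 1.59% of a cKO library and 1.28% to 1.40% of a dKO library. The median change of all 11764 tested genes was 0.25 (log2) in cKO against control, -0.01 in dKO against control and -0.26 in dKO against cKO. Some of the histone changes are therefore also given relative to that median. Depth cannot be known from TPM, so no counting interval is given. Among controls, embryo 1 was the highest for 52 of the 66 tested members and embryo 2 the lowest for 60, and in cKO embryo 4 was the highest for 55.

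The histone pool was smaller in both mutants than in control. Summed over all 69 members, control embryos 1 to 4 stood at 24448, 17014, 21656 and 20721 TPM, cKO embryos at 11742, 11949, 11719 and 15909, and dKO embryos at 13032, 13296, 12848 and 14039. All 8 mutant embryos lay below all 4 controls, and the mutants overlapped each other as deposited. The means were 20960 ± 3070 in the controls, 12830 ± 2055 in cKO (61.2% of control) and 13304 ± 523 in dKO (63.5%; SD, n = 4 each). Sums over chosen genes are described without a test. The coefficient of variation was 3.93% in dKO, 14.6% in control and 16.02% in cKO. In cKO it rested mostly on embryo 4 at 15909 TPM, since the other cKO embryos lay between 11719 and 11949.

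H2A, which pairs with H2B in the nucleosome core, was the class with the lowest share of its control level in cKO when all members were summed. Over members with under 50% shared windows (50-base stretches also found in another member) H3 was lower, at 58.1% of control against 61.9% for H2A, so that order rests on H2A genes of shared sequence. Its sum was 6671, 4069, 5605 and 5139 TPM in control embryos 1 to 4, 2448, 2608, 2346 and 3435 in cKO, and 3020, 3251, 3010 and 3181 in dKO. This is 50.4% of the control mean in cKO and 58.0% in dKO, without overlap with control. H3 followed, at 3680 ± 714 TPM in the controls, 2079 ± 374 in cKO (56.5%) and 2385 ± 113 in dKO (64.8%), again without overlap. H2B stood at 3654 ± 486 in the controls, 2464 ± 335 in cKO (67.4%) and 2231 ± 246 in dKO (61.0%). The linker histone H1 stood at 1507 ± 75.4, 1002 ± 143 and 1000 ± 60.3, at 66.5% and 66.4% of control, and neither H1 nor H2B overlapped between control and a mutant. H4 stood at 6747 ± 759, 4576 ± 732 and 4572 ± 277, at 67.8% of control in both mutants (SD, n = 4 in every case). As deposited, the H4 sums of cKO embryo 4 (5673) and control embryo 2 (5659) overlapped, whereas every dKO sum lay below control. Protein-coding genes took 19.99% of the TPM of cKO embryo 4, the most of any library. In control embryo 2 they took 14.6%, the least of any control. No class sum separated dKO from cKO.

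**Figure D1:**
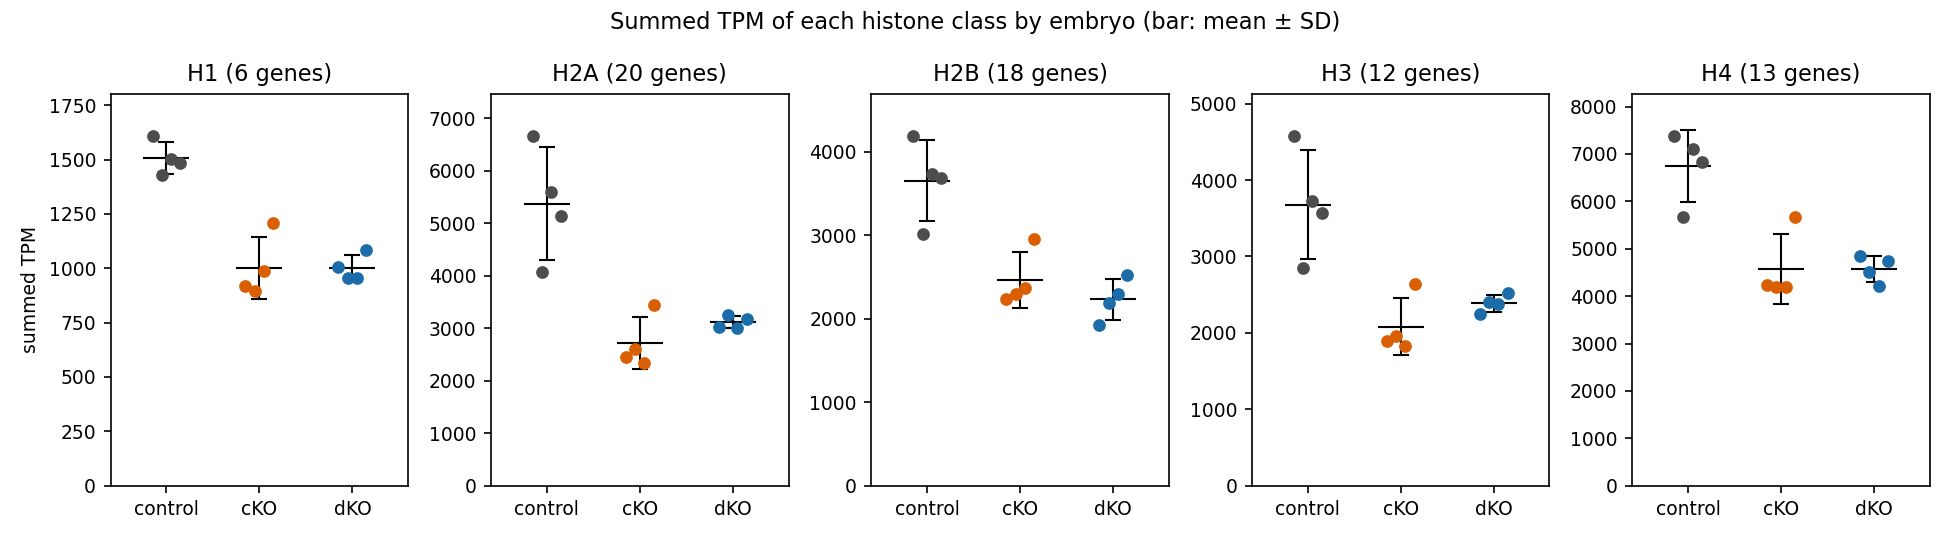
Summed TPM of the genes of each histone class in each embryo (points), with group mean and SD (bars), for control, cKO and dKO (n = 4 each). As deposited, every mutant embryo lies below every control in H1, H2A, H2B and H3. In H4, cKO embryo 4 (5673) overlaps control embryo 2 (5659).

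Single genes were tested with limma on log2(TPM + 1) over 11764 genes (those averaging 1 TPM or more), with Benjamini-Hochberg adjustment over all of them and a call at an adjusted p under 0.05. Fold changes are on that scale, which understates the change of low genes. In cKO against control, 54 of the 66 tested members fell and 2 rose, where 1.09% of all tested genes fell (128) and 34.3% rose (4035). Histone members were 42.2% of all genes that fell in cKO as deposited. Their median log2 change was -0.66 beside 0.25 for all genes. In dKO against control, 42 members fell and 2 rose, beside 3.40% of all genes lower (400) and 1.79% higher (210), and members were 10.5% of those that fell. Their median was -0.65 beside -0.01. Both mutants were compared with the same control embryos. After median-shift centring, which sets the median change of all genes near 0, 56 members fell and 0 rose in cKO (2.96% and 3.72% of all genes), and 47 fell and 2 rose in dKO (4.69% and 3.74%). The member medians after centring were -0.91 in cKO and -0.64 in dKO. Members were then 16.1% of all genes that fell in cKO. They were 20.5% after protein-coding rescaling, which gives libraries an equal sum of protein-coding genes, and 13.9% after quantile normalization.

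The number of calls in dKO depended on single embryos. It was 25 without control embryo 1 (2.41% of all genes) and 24 and 22 without control embryo 3 or 4. It was 26 and 25 without dKO embryo 1 or 3. Without the filter on low values it was 24 (0.669% of all genes). In cKO the count stayed between 42 and 55 when any 1 embryo was left out. Of the leave-one-out fits, the share of all genes called was counted only for that without control embryo 1 (0.934% lower in cKO). Groups did not overlap for 42 members lower and 2 higher in cKO (0.91% and 32.7% of all genes) and for 47 lower and 1 higher in dKO (8.44% and 5.14%).

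By class, the genes that fell in cKO were 5 of 5 tested H1, 16 of 19 H2A, 13 of 17 H2B, 10 of 12 H3 and 10 of 13 H4. In dKO they were 4 of 5 H1, 9 of 19 H2A, 12 of 17 H2B, 7 of 12 H3 and 10 of 13 H4. The median log2 changes in cKO were -0.60 for H1, -1.01 for H2A, -0.54 for H2B, -0.79 for H3 and -0.59 for H4. In dKO they were -0.47, -0.73, -0.67, -0.63 and -0.58 in the same order. By place, all 28 tested genes of the chromosome 13 block from 23531050 fell in cKO and 23 in dKO. In the block from 21715763, 19 of 24 fell and 1 rose in cKO, and 16 fell and 1 rose in dKO. On chromosome 3, 6 of 10 fell and 1 rose in cKO, and 2 fell and 1 rose in dKO. All these calls are as deposited, where 1.09% of all tested genes fell and 34.3% rose in cKO, and 3.40% and 1.79% in dKO.

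**Figure D2:**
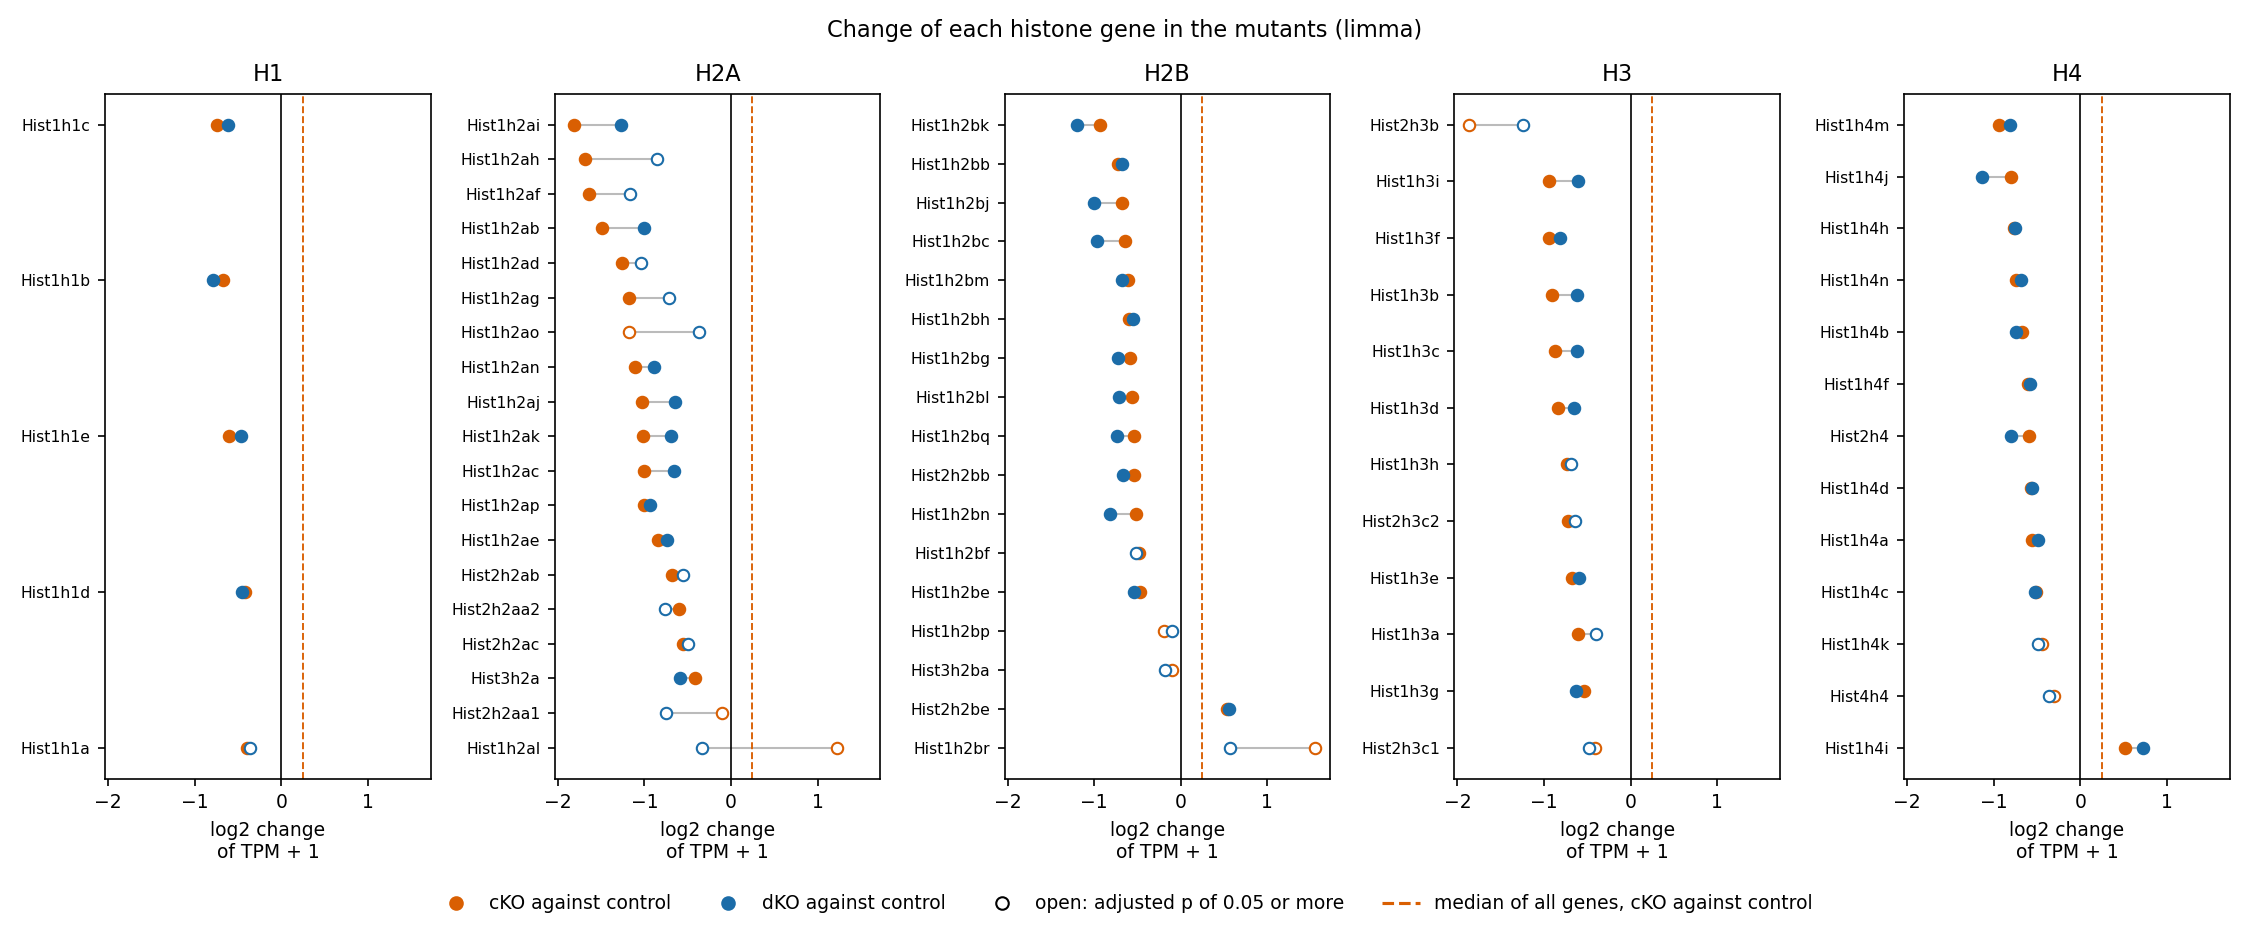
Log2 change of each tested histone gene (log2 TPM + 1, limma) in cKO (orange) and dKO (blue) against control, by class, with filled points for an adjusted p under 0.05, grey lines joining the 2 comparisons of a gene and the orange dashed line at the median of all genes in cKO (0.25). Most points lie left of 0, and Hist1h4i and Hist2h2be are the only filled points right of it as deposited.

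The leading H1 gene was Hist1h1b (H1.5), which made up 43.0% of the H1 sum. It stood at 710.7, 635.8, 687.7 and 697.2 TPM in control embryos 1 to 4, at 398.9, 369.8, 416.5 and 535.3 in cKO and at 444.0, 388.3, 343.7 and 407.2 in dKO. All mutants lay below all controls. Its log2 change was -0.68 ± 0.12 in cKO (SE, limma adjusted p = 0.0026) and -0.79 ± 0.12 in dKO (adjusted p = 0.00323). After centring it was -0.93 in cKO and -0.77 in dKO, so the order of the mutants turned. Hist1h1a (H1.1), next in abundance, stood at 336.8 ± 21.4, 255.9 ± 31.4 and 262.5 ± 33.9 TPM (SD, n = 4). It fell by 0.40 in cKO (limma adjusted p = 0.0223), a call lost without control embryo 1 or cKO embryo 2 (adjusted p up to 0.0689). In dKO its change of -0.36 did not pass (adjusted p = 0.0971).

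Among H2A genes, Hist1h2aj alone made up 32.9% of the class. It stood at 1722, 1472, 1974 and 1748 TPM in the controls, 819.1, 801.8, 689.6 and 1117 in cKO and 1083, 1147, 1056 and 1090 in dKO. Every mutant embryo lay below every control, and cKO embryo 4 lay within the dKO range. The log2 change was -1.03 ± 0.14 in cKO (limma adjusted p = 0.000582) and -0.65 ± 0.14 in dKO (adjusted p = 0.0199, up to 0.0667 when an embryo was left out, with the call lost without control 3 or 4 or dKO 3 or 4). The symbol shares 93.1% of its 50-base windows with other members, so which H2A gene its reads came from is uncertain. In general, 32 members share at least 50% of such windows with another member, and how reads common to several genes were assigned is not given in the sources used here.

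The 5 H2A genes with the largest decreases in cKO were of intermediate abundance, and all share 58.0% to 90.7% of their windows. Hist1h2ai stood at 423.5, 101.6, 170.5 and 151.5 TPM in the controls, at 44.9, 49.0, 57.4 and 54.9 in cKO and at 71.4, 93.2, 68.3 and 69.6 in dKO. Control embryo 1 was far above the other controls, yet all mutants lay below all controls. Its log2 change was -1.81 ± 0.32 in cKO (limma adjusted p = 0.00232) and -1.27 ± 0.32 in dKO (adjusted p = 0.0409), and the dKO call was lost in 9 of 12 leave-one-out fits, with an adjusted p up to 0.0977. In cKO, Hist1h2ah fell by 1.68, Hist1h2af by 1.64, Hist1h2ab by 1.49 and Hist1h2ad by 1.26 on the log2 scale (limma adjusted p from 0.00177 to 0.00887). As deposited, Hist1h2ab alone of these 4 passed in dKO, at -1.01 (adjusted p = 0.0369, lost in 6 of 12 leave-one-out fits, up to 0.0911), whereas Hist1h2ah stood at -0.85 (adjusted p = 0.207), Hist1h2af at -1.17 (0.0759) and Hist1h2ad at -1.03 (0.0651). Hist1h2ad passed in dKO after centring (limma adjusted p = 0.0417) and rescaling (0.0449), whereas Hist1h2ah and Hist1h2af did not. In Hist1h2af control embryo 1 was at 210.7 TPM against 59.9 to 74.8 in the other controls, and dKO embryo 2 at 64.2 against 30.9 to 34.1.

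Copies with nearly the same sequence were also added up. Hist2h2aa1 and Hist2h2aa2 together stood at 872.8, 494.5, 871.5 and 831.9 TPM in the controls, 441.2, 500.5, 404.1 and 625.9 in cKO and 373.2, 450.1, 440.3 and 485.9 in dKO. The sums in dKO lay below all controls and those in cKO overlapped control embryo 2. Alone, Hist2h2aa2 fell in cKO (-0.60, limma adjusted p = 0.0386, lost in 6 of 12 leave-one-out fits, up to 0.0991). It stood at -0.76 in dKO (adjusted p = 0.0503), where it passed after centring (0.0248) and rescaling (0.0249). Its changes after centring were -0.845 in cKO and -0.738 in dKO. Hist1h2ao and Hist1h2ap together stood at 818.8 ± 156 in the controls, 399.8 ± 45.8 in cKO and 437.6 ± 36.9 in dKO (SD, n = 4), without overlap between control and either mutant. Hist1h2al differed widely between embryos of every group. It stood at 225.2 TPM in control embryo 1 and below 1 in the other controls, at 96.8 and 144.5 in cKO embryos 3 and 4 and below 0.26 in the other 2, and at 150.8 in dKO embryo 1 and below 0.81 in the rest.

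Both leading H2B genes fell in both mutants. Hist1h2bq stood at 831.5, 545.2, 821.8 and 718.6 TPM in the controls, at 482.7, 430.1, 449.6 and 631.8 in cKO and at 392.3, 449.5, 418.5 and 468.8 in dKO, with cKO embryo 4 inside the control range. Its log2 change was -0.54 ± 0.16 in cKO (SE, limma adjusted p = 0.0198, up to 0.0637 without control embryo 3 or cKO embryo 2) and -0.74 ± 0.16 in dKO (adjusted p = 0.0167, 0.058 without control embryo 3). Hist1h2bq shares 97.3% of its windows with other members. Summed with its copy Hist1h2br it stood at 731.2 ± 134 TPM in the controls, 510.8 ± 82.1 in cKO and 435.2 ± 32.3 in dKO (SD, n = 4). The sums in dKO lay below all controls, and those in cKO overlapped control. Hist2h2bb, whose sequence shares no window with another member, stood at 484.6 ± 50.4, 336.1 ± 66.2 and 306.5 ± 43.1 TPM (SD, n = 4), with no overlap between control and either mutant. It fell by 0.54 in cKO and by 0.66 in dKO (limma adjusted p = 0.018 and 0.0246). Those calls rested on few embryos, with an adjusted p of 0.0561 in cKO without cKO embryo 2 and up to 0.0648 in dKO, where 6 of 12 leave-one-out fits lost it. After centring, Hist2h2bb changed by -0.79 in cKO and -0.64 in dKO, and Hist1h2bq by -0.79 and -0.72. The order of the mutants turned for both. Hist1h2bk and Hist1h2bj had the larger H2B decreases in dKO, at -1.20 ± 0.19 and -1.003 ± 0.16 (limma adjusted p = 0.00364 and 0.00329). They share 74.2% and 59.4% of their windows with other members. In cKO they fell by 0.93 and 0.68 (adjusted p = 0.00492 and 0.00843). All 4 dKO embryos lay below all 4 cKO embryos for both genes, at 80.1 to 89.1 against 92.7 to 120.3 TPM for Hist1h2bk and 56.9 to 66.9 against 66.95 to 93.5 for Hist1h2bj. The test of that difference did not pass as deposited (limma adjusted p = 0.278 and 0.112), and after median-shift centring the changes were 0.0038 and -0.06, so the direction for Hist1h2bk turned. Groups did not overlap between the mutants for 2 members lower and 3 higher in dKO, where 32.8% and 0.417% of all genes did not.

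The 2 most abundant H3 genes fell in both mutants. Hist1h3i made up 34.2% of the H3 sum and stood at 1697, 1011, 1273 and 1175 TPM in the controls, 614.5, 616.8, 584.2 and 839.8 in cKO and 822.3, 857.3, 789.8 and 863.1 in dKO. The groups of control and mutants did not overlap, and cKO embryo 4 stood in the dKO range. The log2 change was -0.95 ± 0.16 in cKO (limma adjusted p = 0.00177) and -0.60 ± 0.16 in dKO (adjusted p = 0.0478, lost in 10 of 12 leave-one-out fits, up to 0.114). Hist1h3e fell by 0.68 in cKO and by 0.59 in dKO (limma adjusted p = 0.0039 and 0.0235), the latter up to 0.0724 and lost in 5 of 12 leave-one-out fits. Hist1h3i and Hist1h3e share 87.6% and 73.4% of their windows with other members. Hist2h3c2 fell by 0.72 in cKO (adjusted p = 0.0383, lost in 6 of 12, up to 0.0869) and stood at -0.65 in dKO (0.157). Summed with its copies Hist2h3b and Hist2h3c1 it stood at 323.7 ± 85.5, 192.0 ± 64.7 and 199.4 ± 37.6 TPM (SD, n = 4), and control embryo 2, at 206.6, overlapped both mutants.

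The most abundant member overall was an H4 gene whose calls depended on scaling. Hist1h4k stood at 2179, 1404, 1976 and 1778 TPM in the controls, 1358, 1178, 1121 and 1766 in cKO and 1469, 1328, 1066 and 1324 in dKO. cKO embryo 4 stood among the controls, and control embryo 2 among the mutants of both groups. As deposited the log2 change did not pass, at -0.44 in cKO (limma adjusted p = 0.0645) and -0.49 in dKO (0.13). In cKO it passed after centring (-0.69, 0.0182) and after rescaling (-0.68, 0.0112), and in dKO after rescaling (0.0476) but not after centring (0.0781). Hist1h4n, next in abundance, stood at 1288 ± 110, 778.3 ± 143 and 796.5 ± 48.1 TPM (SD, n = 4) without overlap with control, and fell by 0.74 and 0.69 (limma adjusted p = 0.00202 and 0.00855). Hist1h4k and Hist1h4n share 71.5% and 85.6% of their windows with other members. Hist1h4j fell by 0.80 in cKO and by 1.14 in dKO (limma adjusted p = 0.0138 and 0.00829). It stood at 91.1, 55.3, 73.2 and 69.6 TPM in the controls, 33.2, 43.2, 37.9 and 49.8 in cKO and 43.0, 38.2, 28.3 and 21.98 in dKO, so both mutants lay below control. The chromosome 3 gene Hist2h4, of which 1.01% of windows are shared, fell by 0.59 and 0.80 (limma adjusted p = 0.00257 and 0.00156). It held that call in all 12 leave-one-out fits of each comparison. After centring it changed by -0.84 in cKO and -0.78 in dKO, so the order of the mutants turned.

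Hist1h4i went the other way. It stood at 84.9, 84.1, 90.7 and 87.5 TPM in the controls, at 117.6, 112.1, 117.6 and 152.9 in cKO and at 146.9, 153.6, 134.4 and 139.7 in dKO. All mutant embryos were above all controls, and cKO embryo 4 stood apart from its group. The means were 144% and 166% of control. The log2 change was 0.51 ± 0.10 in cKO (SE, limma adjusted p = 0.00431) and 0.72 ± 0.10 in dKO (adjusted p = 0.00229), and both calls held in all leave-one-out fits. In cKO, where the median of all genes was 0.25, the change was 0.26 after median-shift centring (adjusted p = 0.0828) and 0.27 after protein-coding rescaling (0.0393). In dKO it was 0.74 and 0.72 under the same settings, with adjusted p of 0.000358 and 0.000136. The gene shares 28.9% of its windows with other members and encodes the same core histone class as its 12 H4 relatives, of which 10 fell in each mutant and none other rose.

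Hist2h2be was far less abundant than the rest. It stood at 1.55, 1.85, 1.94 and 1.77 TPM in the controls, at 2.81, 3.58, 2.65 and 3.12 in cKO and at 1.87, 3.46, 3.83 and 3.46 in dKO. Every cKO embryo was above every control, while dKO embryo 1 stood among the controls. The log2 change was 0.54 ± 0.14 in cKO (limma adjusted p = 0.0156, 0.0509 without cKO embryo 2) and 0.56 ± 0.14 in dKO (adjusted p = 0.0467, lost in 11 of 12 leave-one-out fits, up to 0.121). Relative to the median of all genes it was 0.29 in cKO and did not pass (adjusted p = 0.259). Its divergent neighbour Hist2h2ac stood at 206.1, 194.0, 260.9 and 234.5 TPM in the controls, 167.3, 168.3, 121.1 and 151.8 in cKO and 123.8, 160.7, 168.2 and 185.4 in dKO, below all controls in both mutants. Hist2h2ac fell by 0.56 in cKO (limma adjusted p = 0.0156) and stood at -0.49 in dKO (0.0802). Hist2h2ab, also on chromosome 3, fell by 0.68 in cKO (adjusted p = 0.0095) and stood at -0.55 in dKO (0.073), where it passed after centring (0.0274) and rescaling (0.0264).

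**Figure D3:**
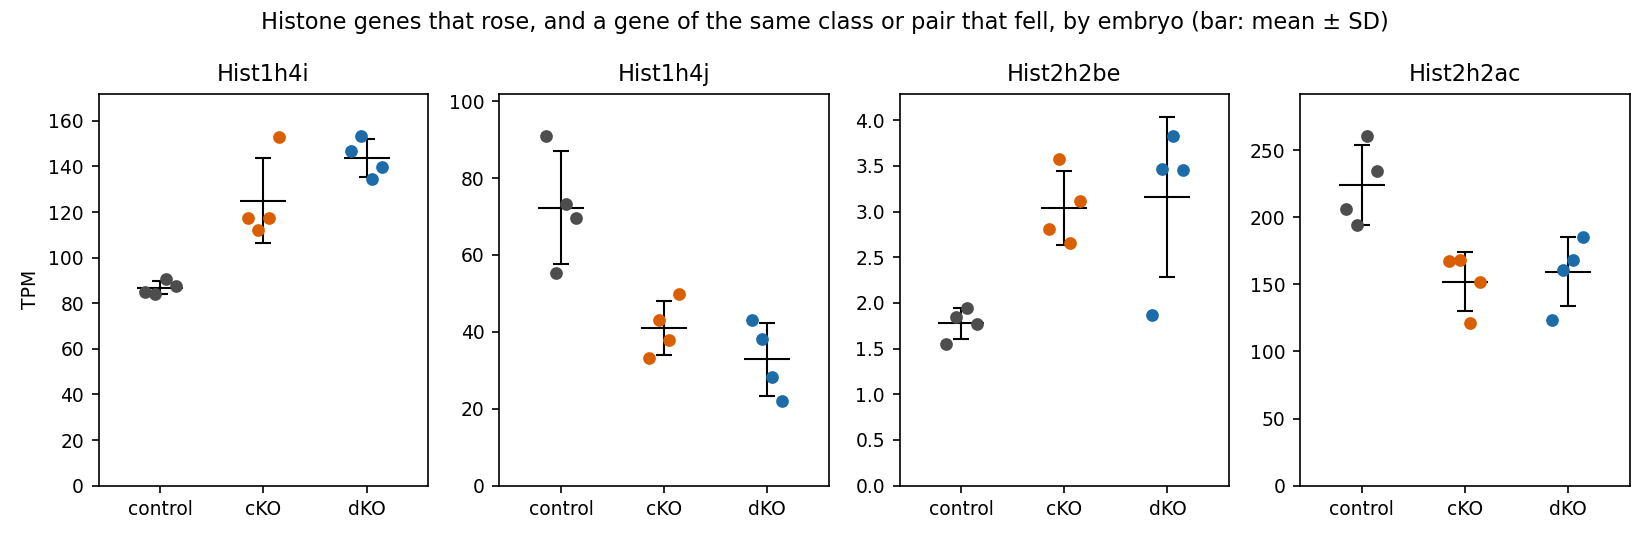
TPM by embryo (points) with group mean and SD (bars) for Hist1h4i and Hist2h2be, which were called higher in both mutants as deposited, beside an H4 gene that fell, Hist1h4j, and the divergent partner of Hist2h2be, Hist2h2ac. Hist1h4i in the mutants lies between 112.1 and 153.6 TPM, above the controls at 84.1 to 90.7, while dKO embryo 1 of Hist2h2be lies among the controls.

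The make-up of the pool also differed in cKO. Because it is a ratio within a library, the share of each class does not depend on how libraries are scaled. H2A took 27.3%, 23.9%, 25.9% and 24.8% of the histone TPM of controls, 20.8%, 21.8%, 20.02% and 21.6% in cKO and 23.2%, 24.5%, 23.4% and 22.7% in dKO. The cKO embryos lay below all others and dKO overlapped control. H2B took 17.5% ± 0.324 in the controls, 19.3% ± 0.660 in cKO and 16.8% ± 1.48 in dKO, and H4 took 32.3% ± 1.41, 35.7% ± 0.442 and 34.4% ± 1.89 (SD, n = 4). The cKO shares of both lay above all controls. H3 took 17.5% ± 0.883, 16.2% ± 0.440 and 17.9% ± 0.530, lower in every cKO embryo than in the others, and H1 took 7.27% ± 0.794, 7.83% ± 0.420 and 7.51% ± 0.257 with overlap. Over the 37 members that share under 50% of their windows, the H2A share was only 6.10% in control and 5.76% in cKO and the ranges of all 5 classes overlapped between these groups. The difference in shares was therefore seen only with the members of shared sequence included, for which assignment is uncertain.

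**Figure D4:**
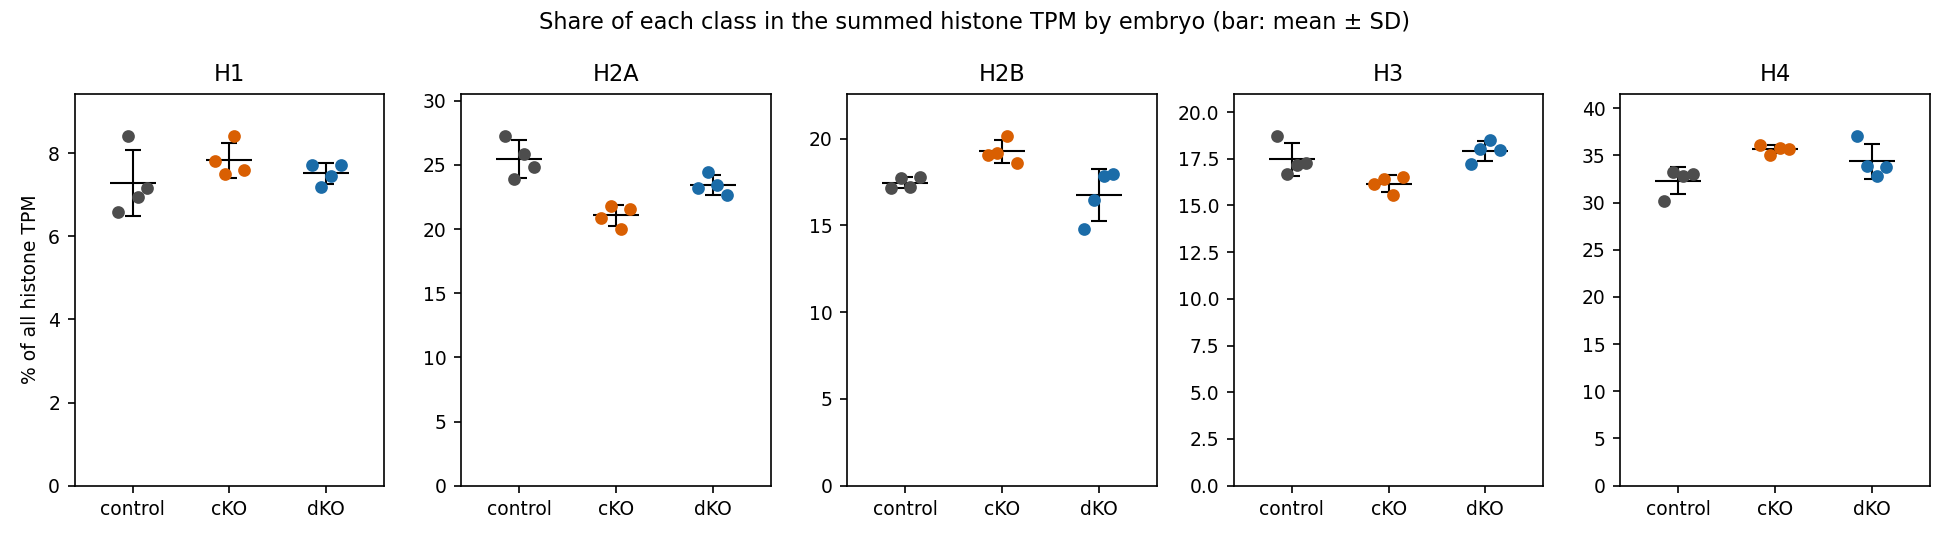
Share of each class in the summed histone TPM of each embryo (points, percent) with group mean and SD (bars). The H2A shares of cKO (20.02% to 21.8%) lie below those of control (23.9% to 27.3%), and those of dKO (22.7% to 24.5%) overlap control.

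The divergent pairs were also compared gene by gene. The 13 pairs have 176 to 306 bases between starts and each joins an H2A and an H2B gene, and both genes were tested in 12. In cKO the H2A gene had the lower log2 change in 12 of 12 pairs, by a median of 0.69 (H2A minus H2B -0.69), and in dKO in 6 of 12 (median 0.01). The largest gap in cKO was that of Hist1h2ap (-1.01) with Hist1h2br (1.55). Hist1h2br stood at 33.0 and 13.4 TPM in cKO embryos 2 and 3 and at 1.15 and 1.34 in embryos 1 and 4. Hist2h2be, paired with Hist2h2ac, was also low, at 1.55 to 3.83 TPM. The pair of Hist1h2ai (-1.81) with Hist1h2bl (-0.56) had a large gap in cKO, and that of Hist1h2ae (-0.84) with Hist1h2bg (-0.59) a small one. These are descriptions, since the genes share sequence with those of other pairs and are not replicates of one another.

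Dividing the members by shared sequence left the main pattern in place. Beside the counts that follow, 1.09% of all tested genes fell and 34.3% rose in cKO, and 3.40% and 1.79% in dKO. The medians of all genes were 0.25 and -0.01. Of the 34 tested members with under 50% shared windows, 28 fell and 2 rose in cKO and 24 fell and 2 rose in dKO, with median log2 changes of -0.59 and -0.57. Of the 32 with at least 50%, 26 and 18 fell, with medians of -0.82 and -0.73. The length of transcript after the stem-loop was examined as well, since longer annotated ends can mark polyadenylated forms. Of 22 members with at most 60 annotated bases after it, 19 fell in cKO and 13 in dKO (medians -0.70 and -0.70), and of 18 with more than 300 bases, 15 and 14 fell (medians -0.59 and -0.57).

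Between the mutants, no member passed the test as deposited. In dKO against cKO, limma called 0 members lower and 0 higher, where 38.8% of all genes were lower and 0.612% higher, and 5 members had an unadjusted p under 0.05. The median of the members was 0.04 beside -0.26 for all genes. The calls depended on scaling. After median-shift centring 12 members were higher and 0 lower in dKO than in cKO (2.1% of all genes higher and 3.83% lower), and after protein-coding rescaling the same 12 (1.58%), whereas quantile normalization gave 3 (2.57%). The 12 were 2 H1, 5 H2A, 4 H3 and 1 H4 genes. They included Hist1h2aj, at 0.64 after centring (limma adjusted p = 0.00825), Hist1h3i at 0.61 (0.0191) and Hist1h4i at 0.48 (0.00739). As deposited their changes were 0.37 (adjusted p = 0.0528), 0.34 (0.0993) and 0.21 (0.12). Leaving out cKO embryo 4, the embryo with the largest histone sum in its group, gave 7 members higher in dKO. The share of all genes called higher in that fit was not counted.

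Factors that activate histone genes or process their messages were examined next. Of 16 tested histone mRNA factors, 0 were lower and 3 higher in cKO as deposited, beside 34.3% of all genes higher (median log2 change 0.17, beside 0.25 for all genes), and 0 passed in dKO in either direction (median -0.08, beside -0.01). After centring or rescaling none was called in cKO, and 1 was lower in dKO (4.69% and 5.69% of all genes lower). Slbp, which encodes the stem-loop binding protein, stood at 29.3, 25.6, 33.2 and 30.8 TPM in the controls, 29.1, 32.2, 25.1 and 39.1 in cKO and 28.4, 21.9, 24.2 and 25.7 in dKO, with overlap throughout (limma adjusted p = 0.706 and 0.35 against control). Npat, the co-activator of histone genes, changed by 0.16 and -0.02 (adjusted p = 0.152 and 0.919), and Casp8ap2, which encodes the FLASH protein of the cleavage complex, by 0.12 and -0.01 (0.441 and 0.977). Lsm10 and Lsm11, proteins of the U7 particle, changed by 0.21 and 0.23 in cKO (0.144 and 0.0848). Rnu7, the U7 RNA itself, is listed at 0 in all libraries, so nothing can be said of its level. Pou2f1, which encodes OCT1, rose by 0.56 in cKO as deposited (adjusted p = 0.0111) and Hinfp, an activator of H4 genes, by 0.36 (0.0337), but after centring Pou2f1 stood at 0.31 (0.191) and Hinfp at 0.11 (0.539). In dKO against cKO, 4 of the 16 were lower as deposited, where 38.8% of all genes were, among them Pou2f1 at -0.55 (limma adjusted p = 0.0096) and Cstf2, a cleavage factor, at -0.46 (0.00661), beside the median of -0.26 for all genes. After centring or rescaling 0 of the 16 were called there.

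Replication genes are active in the same phase of the cell cycle. Of 20, 2 fell and 0 rose in cKO (median -0.03), and 3 fell and 0 rose in dKO (median -0.27), beside 1.09% and 3.40% of all genes lower. After centring 6 fell in cKO and 4 in dKO (2.96% and 4.69% of all genes), and after rescaling 5 and 5 (2.33% and 5.69%). Pcna, the sliding clamp of DNA polymerase, stood at 146.4, 152.9, 170.4 and 153.1 TPM in the controls, 104.5, 125.5, 110.2 and 144.7 in cKO and 142.2, 109.9, 107.8 and 123.5 in dKO, below control in all mutants. Pcna fell by 0.37 in cKO (limma adjusted p = 0.036) and stood at -0.37 in dKO (0.105; 0.0208 after rescaling). Tyms, which makes thymidylate, fell by 0.28 and 0.56 (0.0414 and 0.00669). Rrm2, a subunit of ribonucleotide reductase, and Ccne2, a cyclin of the entry into S phase, fell in dKO by 0.72 and 0.74 (0.00732 and 0.00621). In cKO these 2 did not pass as deposited but did after centring or rescaling (Rrm2 at -0.40 and Ccne2 at -0.50 after centring, limma adjusted p = 0.0304 and 0.0269). Mcm2, of the replicative helicase, changed by 0.10 and 0.02 (0.599 and 0.959).

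Histone chaperones carry new histones to DNA. Of 11, 1 rose in cKO as deposited (Hira, 0.47, limma adjusted p = 0.0223; 0.22 and 0.266 after centring; median of the list 0.13) and 1 fell in dKO (Nasp, which stores soluble H3 and H4, -0.64, 0.00672; median -0.15). Of 10 replacement histones, which are made outside S phase too, 0 passed in cKO (median 0.02) and 1 fell in dKO (H1f0, the H1.0 linker histone, -0.70, 0.00229; median -0.25). The replacement histone with the lowest change in both mutants was H2afx, at -0.66 in cKO and -0.84 in dKO, without a call in either. Of 12 mitosis genes 0 passed in either mutant (medians -0.02 and -0.26). Of all genes, 1.09% were lower and 34.3% higher in cKO as deposited, and 3.40% and 1.79% in dKO. After centring, 3 chaperones, 2 replacement histones and 0 mitosis genes were lower in cKO (2.96% of all genes), and 2, 2 and 1 in dKO (4.69%). In dKO against cKO, 5 chaperones, 4 replacement histones, 4 replication genes and 1 mitosis gene, Aurkb at -0.47 (limma adjusted p = 0.0175), were lower as deposited and none of these lists had a gene higher, where 38.8% of all genes were lower. After centring 1 of these calls was left, that of H1f0 (-0.31, 0.0364), and after rescaling those of H1f0 and Atrx. As deposited they include Rrm2 (-0.57, limma adjusted p = 0.00605), Ccne2 (-0.49, 0.0123), the H3.3 chaperone genes Atrx (-0.63, 0.00168) and Hira (-0.58, 0.0074), and the replacement histones H1f0 (-0.58, 0.00185) and H2afy2, a macroH2A (-0.43, 0.0169).

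**Figure D5:**
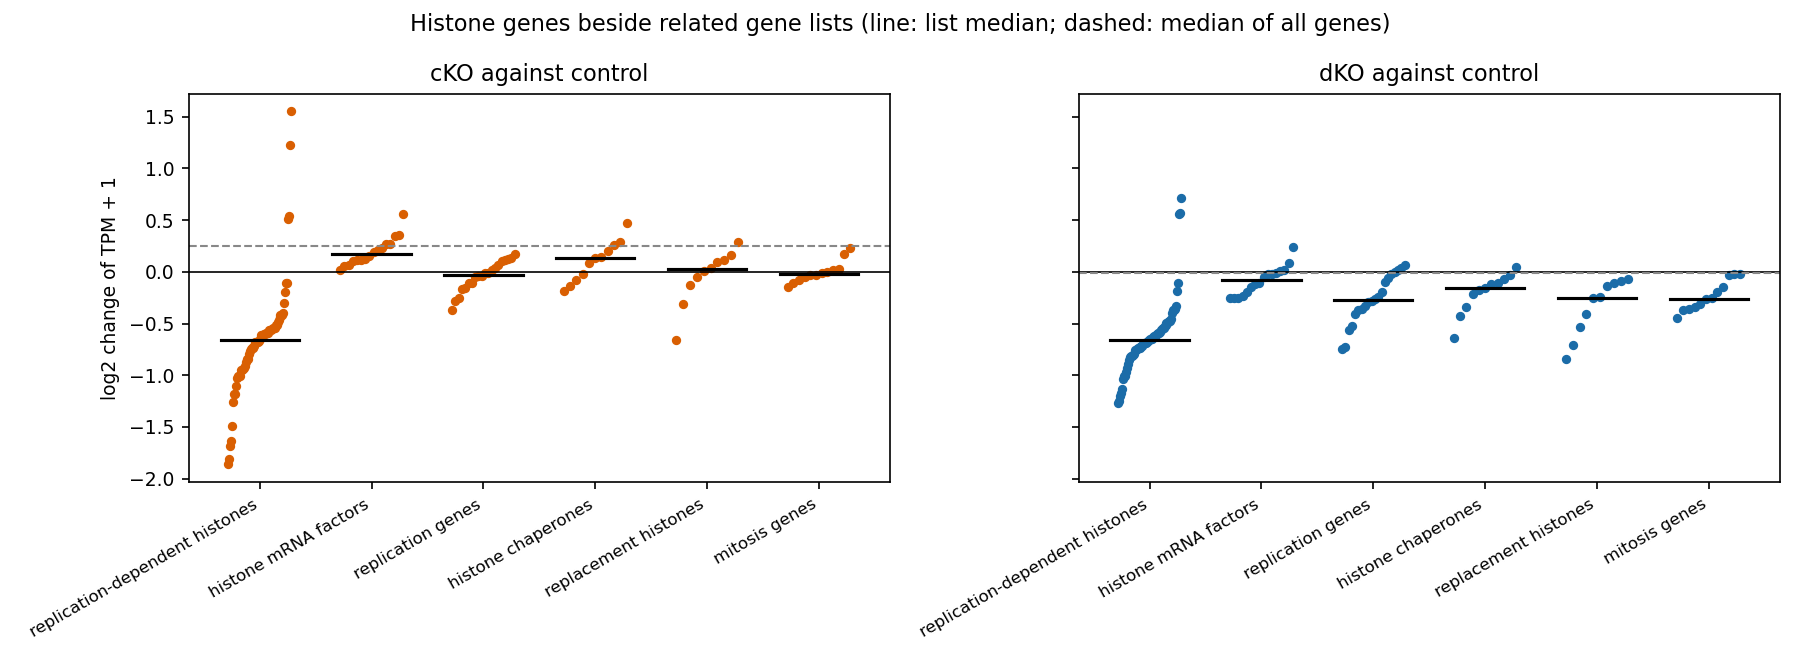
Log2 change (log2 TPM + 1) of each tested gene of the histone set and of 5 related lists in cKO (left) and dKO (right) against control, with list medians (black lines) and the median of all genes (dashed). The histone medians are -0.66 and -0.65, and those of the other lists lie between -0.03 and 0.17 in cKO and between -0.27 and -0.08 in dKO.

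Markers of other cell types moved beside the histone decrease in cKO, where 34.3% of all genes were higher as deposited and 3.72% after centring. Of 5 microglia markers 4 were higher in cKO and their sum was 20.9 to 29.4 TPM against 5.92 to 6.81 in the controls and 6.97 to 8.72 in dKO. Of 4 endothelial markers 4 were higher in cKO (sum 14.997 to 20.02 against 7.43 to 10.01 in control; 9.62 to 15.999 in dKO), and of 4 tested mesenchyme markers 3 (sum 40.9 to 49.1 against 22.7 to 39.4; 35.8 to 52.5 in dKO, where 1 was higher). Of 7 neuron markers 4 were higher in cKO (sum 284.7 to 346.3 against 215.0 to 239.4), and 1 was lower in dKO (146.9 to 228.3). Red blood cell markers overlapped among the groups (2051 to 3111, 2506 to 3469 and 2230 to 2857 TPM), with 0 of 8 called in either mutant as deposited. The 5 pallium markers overlapped too (49.6 to 80.7, 48.7 to 67.1 and 47.9 to 66.8 TPM), with 0 called as deposited. Of 6 radial glia markers 1 was lower and 1 higher in cKO and 0 passed in dKO, and of 3 intermediate progenitor markers 1 was lower and 1 higher in cKO and 1 lower in dKO. Of 5 ventral telencephalon markers only Dlx1 reached a mean of 1 TPM, and it was higher in cKO (sum of the 5 at 1.67 to 2.32 in control, 3.19 to 5.09 in cKO and up to 3.28 in dKO). After centring, the calls higher in cKO numbered 4 for microglia, 2 for endothelium, 1 for mesenchyme and 0 for neuron and ventral telencephalon markers. Calls lower in cKO then numbered 1 for pallium, 2 for radial glia and 2 for intermediate progenitor markers, with 0 higher (2.96% of all genes lower). In dKO the same lists had 1, 0 and 1 lower (4.69%). No marker of these lists was at 0 in all libraries. The part of these cell types in the histone decrease was not tested.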

How the data were processed

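RNA of 12 pallium samples was sequenced as stranded total RNA libraries (TruSeq, NextSeq500), per the labels' protocols. The deposited tables give 1 TPM value per gene symbol without a header; the unit is inferred from sums of 1000000. HISAT2 and mm10 are named in the submitters' processing notes. The quantification tool, annotation, strand setting and treatment of shared reads are not given in the sources used here. Division by gene length and the large share of short structural RNAs mean that a change in those RNAs moves all other values.

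Values were tested with limma 3.58.1 (R 4.3.3; lmFit, contrasts.fit, eBayes with trend) on log2(TPM + 1) over 11764 genes, those averaging 1 TPM or more in all libraries, with the 3 groups in 1 fit. On simulated data for cKO against control, 183 of 200 changed genes (log2 change of 1) were recovered with 9 false calls. The simulated noise was independent between genes, without the median shift of 0.25 seen in cKO and without changes in low genes. These rates therefore check the procedure and do not carry over to the real calls. The members and lists were chosen with earlier results of these data known. Named histones are the 2 most abundant of each class, the 5 largest called increases and decreases per comparison, and called members of the Hist2, Hist3 and Hist4 groups. Other named genes are Rnu11, Trp53, 8 histone and replication genes, and the 2 largest called changes per list and comparison. Gene positions and transcripts are from GENCODE M21. P-values measure the spread between embryos, whose litters are not stated. Protein-coding rescaling multiplies each library by 1 factor (0.783 to 1.11) so that its nuclear protein-coding genes, histones left out, reach an equal sum. The lists of other genes were also counted under each scaling, an alternative chosen after seeing the data.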

Additional observations from a re-analysis of the deposited data

Results flagged for a closer look

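In 10 of 93 groups of 4 embryos, 1 embryo lay far from the other 3, by a gap that took a larger share of the group's range than the 95% limit of Dixon's test. Chance gives about 1 in 20, or 4.65 groups, if the groups are independent. These are not, since the sums hold the single genes and all come from the same libraries, so no excess can be read from this. cKO embryo 4 was high in 4 of the 10 groups, on TPM as deposited. Protein-coding genes took 19.99% of its TPM, against 16.07% to 17.50% in the other cKO embryos, so its scaling may enter these gaps. The gap of cKO embryo 4 was 0.9451 of the range in the sum of all members (15909 TPM against 11719 to 11949) and 0.9656 in the H4 sum (5673 against 4191 to 4242). It was 0.8725 in Hist1h3i (839.8 against 584.2 to 616.8) and 0.865 in Hist1h4i (152.9 against 112.1 to 117.6). dKO embryo 2 was high in 4 H2A genes with shared sequence. The gap was 0.8729 in Hist1h2ai (93.2 against 68.3 to 71.4 TPM), 0.8855 in Hist1h2ah (70.0 against 25.4 to 30.5), 0.9032 in Hist1h2af (64.2 against 30.9 to 34.1) and 0.868 in Hist1h2ab (115.9 against 91.2 to 94.5). Control embryo 1 was high in Hist1h2af, with a gap of 0.9009 (210.7 against 59.9 to 74.8), and in Hist3h2a, with a gap of 0.8516 (29.2 against 23.7 to 24.5). Hist3h2a fell by 0.41 in cKO (limma adjusted p = 0.0214) and by 0.59 in dKO (0.0145). The cKO value was 0.0603 at most when an embryo was left out, with the call lost without control embryo 1 or cKO embryo 2. After centring the changes were -0.66 in cKO and -0.57 in dKO.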

How the results depend on the processing

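The decrease of the members in cKO, 54 genes as reported, was between 42 and 55 when embryos were left out in turn, and the 2 increases between 1 and 2. In dKO against control the 42 decreases became 22 to 45 and the increases 1 to 2, and in dKO against cKO the increases 0 to 7. Among members sharing under 50% of windows, an alternative chosen after seeing the data, 28 fell in cKO and 24 in dKO. Without a filter, 24 fell and 1 rose in dKO. With a mean of at least 5 TPM, 1 rose in cKO and 1 in dKO. The increases in cKO numbered 1 after quantile normalization, 0 after centring and 1 after rescaling, and those in dKO against cKO 3, 12 and 12. After centring and rescaling, the log2 ratio of sums in cKO against control was -0.96 and -0.96 for all members, -0.84 and -0.84 for H1, -0.82 and -0.82 for H2B, and -0.81 and -0.81 for H4. In dKO against cKO it was 0.33 and 0.31 for all members, 0.27 and 0.25 for H1, 0.48 and 0.46 for H2A, 0.13 and 0.11 for H2B, 0.48 and 0.46 for H3, and 0.28 and 0.25 for H4. The H2B ratio between the mutants was -0.14 as deposited, so its sign turned. In dKO, H1 stood at -0.45 without its most abundant gene and -0.47 by the median of its genes, and in cKO H2A at -0.69 over members with under 50% shared windows. Replicate numbers did not pair embryos (0 of 12 same-numbered pairs correlated above 0.1, from -0.095 to 0.075; 1 of 12 libraries was closest to its own number). With the replicate block, 54 members fell in cKO and 28 in dKO, with 2 increases in each, and 0 were called between the mutants. For single named genes, 954 alternative values kept the side of the threshold, 93 lost the call and 33 gained one. Hist1h2bk in dKO against cKO, not called, turned to 0.0038 after centring. Between the mutants these values cover only named members called under a scaling or without overlap, and over all 25 named members the sign of 13 turned under at least 1 alternative, with 0 called in the turned direction. Depth is unknown, so the effect of counting error was not tested.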
